A study of Mus musculus with 12 samples.

Results

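The genes described here encode the centromere, the kinetochore and the spindle checkpoint in mouse oocytes that lacked Lsm14b. They are 41 genes chosen by name and sorted by sub-complex: 15 of the inner kinetochore, 4 of the NDC80 complex, 4 of the MIS12 complex, KNL1 with its partner ZWINT, 3 of the corona, 6 of the checkpoint, 2 shugoshins and 5 of the chromosomal passenger complex. All 41 were among the 22801 genes of the metaphase II (MII) table. At the germinal vesicle stage (GV) the table holds only 3475 genes that the authors had selected by p and fold, and it lists 3 of the 41, namely Cenpa, Cenpb and Cenpi. The other 38 are not among the selected genes, and their GV levels were not analysed here.

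Conditional knockout oocytes (CKO) had the genotype Lsm14b fl/fl-Gdf9-Cre and control oocytes (WT) had the genotype Lsm14b fl/fl, so every group carried the floxed alleles and only CKO carried the recombinase, which the Gdf9 promoter drives in oocytes. No control with Cre alone was analysed here, so the deletion and the presence of Cre cannot be told apart. All oocytes came from C57BL/6 females at postnatal day 35 and were lysed in pools of 15 per tube, and total RNA was sequenced with standard Illumina libraries. There were 3 libraries in each of the 4 groups (GV CKO, GV WT, MII CKO and MII WT), which the labels call biological replicates. In pooled oocytes, fewer oocytes that express a gene and less RNA per oocyte cannot be told apart.

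As background, the kinetochore is the protein assembly that joins a chromosome to spindle microtubules. Its inner layer is built on nucleosomes that contain the histone variant CENP-A, its outer layer (the KNL1, MIS12 and NDC80 complexes) grips the microtubule, and the checkpoint proteins that gather on unattached kinetochores hold back anaphase until every chromosome is attached. Fully grown oocytes are transcriptionally silent and depend on stored mRNA, much of which is translated or degraded in a timed order during maturation from GV to MII.

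The libraries themselves were checked first. Lsm14b averaged 1436 ± 164 normalized counts in CKO and 22931 ± 6257 in WT at GV (SD, n = 3 each), and 908 ± 80.9 in CKO and 11051 ± 524 in WT at MII (limma log2 difference -3.61, SE 0.27, Benjamini-Hochberg adjusted p = 0.00265). The MII libraries held 23077585 to 40530314 reads in CKO and 88494525 to 124872889 in WT, so every CKO library was shallower than every WT library. All 10 oocyte markers were detected at MII, with a summed level of 1062220 to 1291120 normalized counts in CKO and 913798 to 993565 in WT, without overlap. The markers went both ways, 6 above and 4 below 0. Without overlap 4 were higher and 2 lower, against 10.4% and 12% of all genes. Padi6 averaged 503148 in CKO and 326414 in WT, whereas Bmp15 averaged 62632 in CKO and 132010 in WT, and Dazl 3214 and 10600. The 11 cumulus and granulosa markers in the table summed to 3213 to 4365 in CKO and 2633 to 5214 in WT, and the 6 markers of theca, stroma and endothelium to 3941 to 4576 in CKO and 3660 to 4705 in WT, so both sets overlapped between the genotypes. Of the cumulus and granulosa set, Amh, Hsd17b1 and Has2 were at 0 in every CKO library, while Fshr (mean 115 in CKO and 12.99 in WT), Ptgs2 (72.8 in CKO and 2.55 in WT) and Inhba (24.5 in CKO and 1.96 in WT) were higher, and 4 of the 10 tested were higher without overlap and 0 lower. The theca, stroma and endothelium sum was mostly Pecam1 (3989 in CKO and 3441 in WT), and 2 of the 5 tested were lower without overlap, among means of 21.6 in CKO and 139 in WT for Kdr and 205 in CKO and 615 in WT for Tie1. The 3 blood and immune markers in the table summed to 194 to 215 in CKO and 1118 to 1925 in WT, without overlap, mostly through C1qb (147 in CKO and 1482 in WT), while Cd68 averaged 58.6 in CKO and 31.5 in WT. The part of these markers in the results was not tested. WT replicate 3 stood apart from the other MII libraries, with Spearman correlations of 0.847 to 0.877 to them against 0.899 to 0.940 among the rest. Of its reads, 24.3% fell on the gene model CT010467.1, against 6.56% to 11.8% in the other libraries. It held the highest value of the 6 libraries in 16 of the 41 genes (39%, against 26.1% of all genes tested), and it was above 2 times the mean of WT replicates 1 and 2 in 13 of the 40 genes that had one. MII values are therefore given per library and, where this changes them, also without WT replicate 3.

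At GV, Cenpa was lower in CKO oocytes, and Cenpb and Cenpi were higher. The number of genes tested at GV, 21462, was inferred from the adjusted and unadjusted p-values of the authors' deposited table. Of these, 12.9% passed an adjusted p under 0.05 with over 2-fold in that table, 4.96% higher and 7.89% lower in CKO. The 2 higher and 1 lower of 41 are not above these shares, and the table holds such genes by construction. The same table lists 6 markers of other cell types, and their part in these results was not tested. In the authors' deposited table the log2 fold change at GV was -10.4 for Kdr (at 0 in all 3 CKO libraries), -6.66 for Col1a2, -6.06 for Pdgfra, -2.29 for Tie1, -1.21 for C1qb and 1.51 for Cd68. Cenpa encodes the histone H3 variant that marks the centromere. The gene lies at chr5:30666777-30674830 (GENCODE vM21, on GRCm38). It had 1422, 959 and 1042 normalized counts in CKO replicates 1, 2 and 4, against 2284, 2569 and 2665 in WT replicates 1, 2 and 4. Every CKO library lay below every WT library, and the CKO mean was 45.5% of the WT mean (1141 ± 247 in CKO and 2506 ± 198 in WT, SD, n = 3 each). The authors' deposited table gives a log2 fold change of -1.14 (SE 0.22, adjusted p = 2.68e-06).

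Cenpi (chrX:134308084-134362639) encodes a subunit of the inner kinetochore's CENP-H, CENP-I, CENP-K and CENP-M group. It had 1101, 907 and 1118 normalized counts in the 3 GV CKO libraries, against 281, 450 and 397 in the 3 GV WT libraries. The genotypes did not overlap, the CKO mean was 277% of the WT mean (1042 ± 117 in CKO and 376 ± 86.7 in WT, SD, n = 3 each), and the authors' deposited table gives a log2 fold change of 1.47 (SE 0.28, adjusted p = 3.5e-06). Cenpb (chr2:131175182-131180067) encodes a protein that binds a short DNA motif in the centromeric minor satellite repeats of the mouse. It had 835, 1022 and 1081 normalized counts in CKO, against 517, 266 and 308 in WT. Again no library overlapped, the CKO mean was 269% of the WT mean (979 ± 128 in CKO and 364 ± 134 in WT, SD, n = 3 each), and the authors' deposited table gives a log2 fold change of 1.43 (SE 0.34, adjusted p = 0.000245).

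The same genes are shown at MII beside these values, although the stages were normalized separately and levels cannot be compared between them. Cenpa kept its direction at MII, with 226, 154 and 145 normalized counts in CKO replicates 2, 3 and 4, against 417, 380 and 1696 in WT replicates 1, 2 and 3. All CKO libraries lay below all WT libraries, with a limma log2 difference of -1.91 (SE 0.64, Benjamini-Hochberg adjusted p = 0.179), which did not pass the threshold of 0.05. Without WT replicate 3, whose value was 4.25 times the mean of the other WT libraries, the difference was -1.21 (adjusted p = 0.121). The authors' deposited table lists Cenpa at MII with a log2 fold change of -2.25 (adjusted p = 0.0132). Cenpi had 158, 157 and 376 normalized counts in MII CKO eggs, against 44.2, 65.2 and 286 in MII WT eggs. WT replicate 3 lay within the CKO range, and the log2 difference was 1.16 (SE 0.84, adjusted p = 0.544) in limma with Benjamini-Hochberg adjustment, and 1.95 without that library. Cenpb was almost undetected at MII, with 16 reads (22.0 normalized counts) in CKO replicate 4 and 0 in the other 2 CKO and all 3 WT libraries. A count of 0 allows up to 1.54 to 7.60 normalized counts in these libraries (3 reads, counting error only), and no fold is given for Cenpb.

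**Figure D1:**
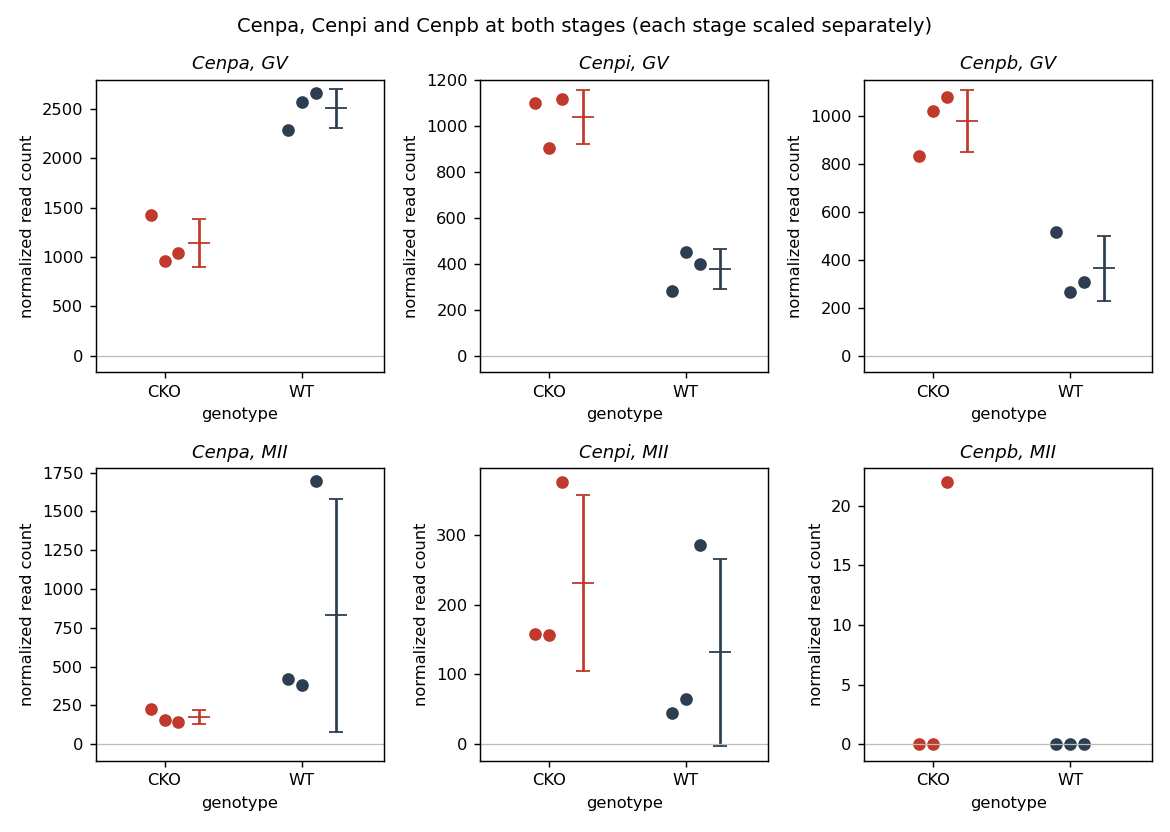
Normalized read count of Cenpa, Cenpi and Cenpb in each library at GV (upper row) and MII (lower row), CKO in red and WT in dark blue; points are libraries and bars the mean ± SD of 3, left out for Cenpb at MII. At GV the genotypes do not overlap in any of the 3 genes, whereas at MII WT replicate 3 lies far above the other WT libraries for Cenpa (1696) and Cenpi (286).

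At MII none of the 41 genes passed the limma test across all 20388 genes at a Benjamini-Hochberg adjusted p under 0.05, where 1.51% of all genes did (0.52% higher and 0.991% lower). At an unadjusted p under 0.05 there were 13 of 41 (31.7%, 5 higher and 8 lower in CKO), against 16% of all genes (6.7% higher and 9.28% lower). The libraries of the genotypes did not overlap in 17 of 41 (41.5%, 9 higher and 8 lower), against 22.4% of all genes (10.4% higher and 12% lower). The genes were split evenly in direction, 21 above and 20 below 0, with a median log2 difference of 0.03 (all genes -0.11), and 0.09 without WT replicate 3 (all genes -0.15). Their median absolute log2 difference was 0.63, against 0.95 over all genes. Of the 40 genes with an adjusted p in the authors' deposited table, 1 (Cenpq) was higher and 3 (Cenpa, Cenph and Cenpk) were lower past 0.05 and 2-fold, against 10.5% of all genes (4.1% higher and 6.45% lower). At any fold the authors' deposited table had 7 past 0.05, with Zw10, Dsn1 and Zwint added, against 11.5% of all genes. Without WT replicate 3 limma called 1 gene, Zw10, where 4.37% of all genes were called. With array quality weights, which give that library a weight of 0.198, it called 8 (Cenpq, Zw10, Zwint and Birc5 higher; Cenpk, Cenph, Dsn1 and Aurkb lower), where 15.6% of all genes were called. It called none of the 41 with limma-voom on recovered reads (0.839% of all genes) or on thinned reads (1.02%).

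**Figure D2:**
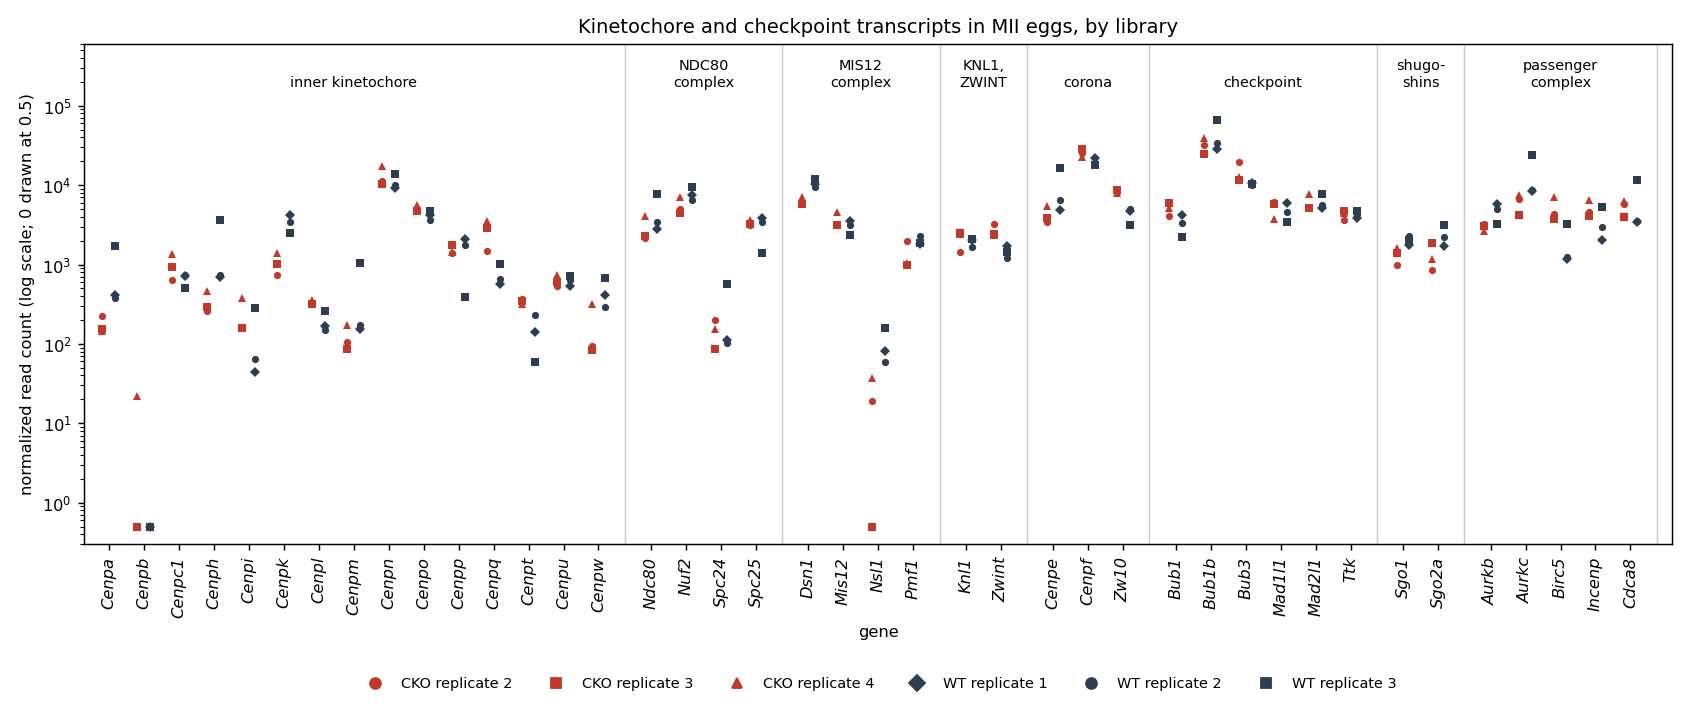
Normalized read count (log scale) of each of the 41 genes in the 6 MII libraries, grouped by sub-complex, with CKO in red to the left of WT in dark blue and one marker shape per library. Cenpk and Dsn1 are lower in every CKO library, Cenpq, Zw10 and Zwint are higher, and WT replicate 3 (squares) stands far above the other WT libraries for Cenpa, Cenph and Cenpm.

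In the inner kinetochore, differences ran in both directions, with Cenpk and Cenph on the lower side and Cenpq and Cenpt on the higher. Of the 15 genes, 2 were higher and 4 lower at an unadjusted limma p under 0.05, against 6.7% higher and 9.28% lower of all genes. The median log2 difference of the 15 was 0.29. Cenpk (chromosome 13) had 738, 1028 and 1384 normalized counts in CKO, against 4216, 3466 and 2468 in WT. Every CKO library lay below every WT library, and the limma log2 difference was -1.70 (SE 0.36, Benjamini-Hochberg adjusted p = 0.0528), the closest to the threshold of the 41 with all 6 libraries. The authors' deposited table gives -1.69 (adjusted p = 0.000434). Its partner Cenph (chromosome 13) had 263, 291 and 470 normalized counts in CKO, against 690, 736 and 3616 in WT. Here too the genotypes did not overlap, with a log2 difference of -1.89 (SE 0.64, limma adjusted p = 0.182, Benjamini-Hochberg) with all 6 libraries, and -1.11 without WT replicate 3. The remaining subunit of this group, Cenpm, had 86.1 to 175 normalized counts in CKO and 156 to 1031 in WT and overlapped, with a log2 difference of -1.37 and -0.48 without WT replicate 3. Cenpi, described above, was on the other side of 0, so the 4 subunits did not share a direction.

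Cenpq (chromosome 17) was the inner kinetochore gene with the largest positive difference among those detected in every library. It had 1480, 2843 and 3515 normalized counts in CKO, against 571, 649 and 1013 in WT. The genotypes did not overlap, and the limma log2 difference was 1.77 (SE 0.42, Benjamini-Hochberg adjusted p = 0.0731). The authors' deposited table gives 1.81 (adjusted p = 0.00154). CENP-Q, which binds microtubules in human cells, works in one complex with CENP-O, CENP-P and CENP-U, whose transcripts differed less. Cenpo was higher in every CKO library (4765 to 5581 normalized counts in CKO, 3601 to 4718 in WT), with a log2 difference of 0.29. Cenpu had 534 to 737 normalized counts in CKO and 534 to 718 in WT, with a log2 difference of -0.01 (95% interval -0.86 to 0.84). Cenpp changed sign with 1 library, at 0.44 with all 6 and -0.34 without WT replicate 3, where it had 386 normalized counts against 1771 to 2119 in the other WT libraries.

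CENP-T and CENP-W form a histone-fold pair that binds DNA and recruits the NDC80 complex, and their transcripts lay on opposite sides of 0. Cenpt had 366, 344 and 321 normalized counts in CKO, against 141, 228 and 58.5 in WT. All CKO libraries were above all WT libraries, with a limma log2 difference of 1.47 (SE 0.64, Benjamini-Hochberg adjusted p = 0.299), and 0.93 without WT replicate 3. Cenpw had 93.6, 83.6 and 321 normalized counts in CKO, against 414, 291 and 683 in WT. CKO replicate 4 lay within the WT range, and the limma log2 difference was -1.67 (SE 0.67, Benjamini-Hochberg adjusted p = 0.261). Cenpn, which reads the CENP-A nucleosome with its partner Cenpl, was the most abundant inner kinetochore transcript. It had 11119, 10269 and 17606 normalized counts in CKO, against 9232, 10023 and 13721 in WT, and the genotypes overlapped with a log2 difference of 0.22, and 0.39 without WT replicate 3. Cenpl was higher in every CKO library (316 to 358 in CKO, 151 to 263 in WT, log2 difference 0.81). Cenpc1, the mouse gene for CENP-C, which links CENP-A nucleosomes to the MIS12 complex, had 631 to 1364 normalized counts in CKO and 511 to 747 in WT, and overlapped.

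Promoters are shown for Cenpa and Cenpq, of which Cenpa was the gene below WT in every CKO library at both stages and Cenpq had the largest positive difference at MII. They are RefSeq promoters on GRCm38.p6, from 250 bases before to 50 bases after the start, Cenpa at chr5:30666636-30666935 on the plus strand and Cenpq at chr17:40934525-40934824 on the minus strand. Capitals mark TTTGAA (or TTCAAA on the other strand), the core of the cell cycle genes homology region (CHR) that is known from many genes of mitosis, and CCAAT (or ATTGG on the other strand), the motif of the factor NF-Y.
Cenpa: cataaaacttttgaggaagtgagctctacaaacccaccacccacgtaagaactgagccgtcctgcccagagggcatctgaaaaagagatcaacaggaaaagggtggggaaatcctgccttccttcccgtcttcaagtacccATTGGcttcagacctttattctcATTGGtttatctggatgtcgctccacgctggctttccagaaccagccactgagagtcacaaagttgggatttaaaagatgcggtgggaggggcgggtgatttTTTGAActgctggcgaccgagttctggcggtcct
Cenpq: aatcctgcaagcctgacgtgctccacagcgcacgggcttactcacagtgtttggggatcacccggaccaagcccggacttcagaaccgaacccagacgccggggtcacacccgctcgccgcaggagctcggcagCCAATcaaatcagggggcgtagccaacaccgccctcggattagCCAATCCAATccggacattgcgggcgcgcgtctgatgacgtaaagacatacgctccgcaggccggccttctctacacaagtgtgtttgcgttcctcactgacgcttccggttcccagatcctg
Cenpa holds 1 CHR match and 2 CCAAT matches, while Cenpq holds 3 CCAAT matches and no CHR match. A promoter was listed for 37 of the 41 genes, 42 promoters in all. Of these, 15 (35.7%) hold the CHR letters, against 13.9% of the 16107 promoters of the genes tested, 29 (69%) hold CCAAT, against 38.2%, and 12 (28.6%) hold both, against 5.6%. Some genes have several promoters, and those of Bub3 overlap, so the same site can be counted again. By gene, 14 of the 37 hold CHR, 25 hold CCAAT and 11 hold both in 1 promoter. Of the 12746 tested genes with a promoter, 2076, 5508 and 853 do. Genes with both motifs were Bub1b, Bub3, Cdca8, Cenpa, Cenpf, Cenpl, Cenpn, Cenpw, Pmf1, Spc25 and Ttk. A match is a description of these letters and not evidence of a bound site.

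In the outer kinetochore, Dsn1 of the MIS12 complex lay lower in every CKO library, and so did the MIS12 sum that it dominates. Mis12 lay above 0 and Pmf1 overlapped, so the lower sum does not describe each subunit. The NDC80 sum overlapped (sums were not tested). The 4 MIS12 complex transcripts summed to 9811 to 12795 normalized counts in CKO and 14920 to 16217 in WT, without overlap, with a median log2 difference of -0.70. Most of this sum was Dsn1, a subunit that links the complex to CENP-C and is a target of Aurora kinase. Dsn1 (chromosome 2) had 5767, 5704 and 7124 normalized counts in CKO, against 10216, 9460 and 11876 in WT. Every CKO library lay below every WT library, with a limma log2 difference of -0.76 (SE 0.26, Benjamini-Hochberg adjusted p = 0.190), and -0.67 when WT replicate 3 was left out (limma adjusted p = 0.095). The authors' deposited table gives -0.76 (adjusted p = 0.0269). Nsl1 was the MIS12 complex transcript with the fewest reads, with 14, 0 and 27 reads (19.3, 0 and 37.2 normalized counts) in CKO, against 138, 98 and 308 reads (81.3, 58.6 and 158 normalized counts) in WT. Its fitted log2 difference of -3.33 (SE 1.49, limma adjusted p = 0.312, Benjamini-Hochberg) depends on the library at 0, where up to 7.60 normalized counts would have gone undetected. Mis12 itself had 3117 to 4591 normalized counts in CKO and 2330 to 3519 in WT (log2 difference 0.27, and 0.11 without WT replicate 3), and Pmf1 had 990 to 1958 in CKO and 1808 to 2273 in WT (-0.64), both with overlap. Per kilobase of exon, the ratio of Dsn1 to Mis12 was 1.76 to 2.08 in CKO and 3.29 to 5.78 in WT, without overlap. The ratio of Dsn1 to Pmf1 was 1.12 to 2.60 in CKO and 1.58 to 2.44 in WT, with overlap. Against Nsl1, Dsn1 was higher in CKO, at 377 and 589 in the 2 CKO libraries with Nsl1 reads and 148 to 317 in WT.

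The NDC80 complex forms the rod that contacts the microtubule. None of its 4 transcripts reached an unadjusted p under 0.05, where 16% of all genes did. Ndc80 had 2164, 2269 and 4096 normalized counts in CKO, against 2772, 3444 and 7660 in WT, with a log2 difference of -0.62 (95% interval -1.58 to 0.34), and -0.18 without WT replicate 3. Its coiled-coil partner Nuf2 had 4974, 4517 and 7084 in CKO, against 7445, 6414 and 9576 in WT, with a log2 difference of -0.51 (95% interval -1.18 to 0.16). In both, CKO replicate 4 was the CKO library that overlapped the WT range. The other 2 subunits turned with WT replicate 3, since Spc24 was at -0.43 with all 6 libraries and 0.37 without it, and Spc25 at 0.34 and -0.12. WT replicate 3 had 570 normalized counts of Spc24, against 102 to 113 in the other WT libraries, and 1376 of Spc25, against 3384 to 3876.

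KNL1 is the scaffold on which BUB1 and BUBR1 assemble, and ZWINT binds it and helps to recruit the ZW10 complex. Zwint had 3226, 2418 and 2359 normalized counts in CKO, against 1695, 1197 and 1448 in WT. All CKO libraries lay above all WT libraries, with a limma log2 difference of 0.88 (SE 0.31, Benjamini-Hochberg adjusted p = 0.200) that was 0.89 without WT replicate 3. The authors' deposited table gives 0.88 (adjusted p = 0.0354). Knl1 had 1421 to 2512 normalized counts in CKO and 1645 to 2068 in WT, a log2 difference of 0.11 with overlap.

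In the corona, the outermost layer of unattached kinetochores, Zw10 was the gene with the clearest difference. ZW10 belongs to the complex that brings dynein and the checkpoint protein MAD1 to the kinetochore, and it also has a role in membrane traffic. Zw10 (chromosome 9) had 8160, 8745 and 7865 normalized counts in CKO, against 4700, 4988 and 3139 in WT. The lowest CKO library was far above the highest WT library, with a limma log2 difference of 0.98 (SE 0.29, Benjamini-Hochberg adjusted p = 0.124). Without WT replicate 3 it was 0.77 and passed the threshold (adjusted p = 0.043), and the authors' deposited table gives 0.95 (adjusted p = 0.0158). Cenpf, a large coiled-coil protein of the corona and the nuclear matrix, had 25175, 28238 and 22361 normalized counts in CKO, against 21923, 18777 and 17687 in WT. It was higher in every CKO library by a small margin (log2 difference 0.38, SE 0.26). Cenpe, the kinesin that carries chromosomes along microtubules, had 3445 to 5514 normalized counts in CKO and 4792 to 16451 in WT, with a log2 difference of -0.94 and -0.42 without WT replicate 3.

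Of the 6 checkpoint genes 0 reached an unadjusted p under 0.05 at MII, where 16% of all genes did. Bub3 was higher in every CKO library and the other 5 overlapped. Their log2 differences ran from -0.36 to 0.67, and their median was 0.07. Bub1b encodes BUBR1, a subunit of the mitotic checkpoint complex that inhibits the anaphase-promoting complex. It had 31786, 24585 and 38774 normalized counts in CKO, against 28857, 33771 and 65512 in WT. The log2 difference was -0.36 (95% interval -1.18 to 0.46) with all 6 libraries and 0.00 without WT replicate 3. Bub1, the kinase that marks centromeric chromatin for shugoshin, had 4026, 5970 and 5164 normalized counts in CKO, against 4167, 3368 and 2191 in WT. CKO replicate 2 lay below WT replicate 1, and the log2 difference was 0.67 (95% interval -0.06 to 1.41), and 0.41 without WT replicate 3. Bub3, which carries both proteins to KNL1, was higher in every CKO library (11588 to 19734 in CKO, 10145 to 10706 in WT, log2 difference 0.46). Ttk (MPS1, the kinase that starts checkpoint signalling), Mad1l1 and Mad2l1 overlapped, with log2 differences of -0.01, 0.16 and -0.03.

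Both shugoshins lay below 0. Shugoshins guard the cohesin at sister centromeres, and SGO2 has this role in mouse oocytes at the first meiotic division. Sgo2a had 849, 1889 and 1157 normalized counts in CKO, against 1700, 2221 and 3168 in WT. CKO replicate 3 lay above WT replicate 1, and the limma log2 difference was -0.90 (SE 0.40, Benjamini-Hochberg adjusted p = 0.307). Sgo1 had 978 to 1632 normalized counts in CKO and 1781 to 2288 in WT, without overlap, with a log2 difference of -0.63 (SE 0.33). As a sum the pair had 1827 to 3289 normalized counts in CKO and 3481 to 5217 in WT.

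In the chromosomal passenger complex, which corrects faulty attachments, 1 of the 5 genes was higher (Birc5) and 1 lower (Aurkc) at an unadjusted p under 0.05. Over all genes tested, 6.7% were higher and 9.28% lower at this threshold. Aurkc encodes the Aurora kinase specific to germ cells. It had 6673, 4145 and 7501 normalized counts in CKO, against 8413, 8664 and 24196 in WT. The genotypes did not overlap, with a limma log2 difference of -1.03 (SE 0.44, Benjamini-Hochberg adjusted p = 0.290) that was -0.53 without WT replicate 3. Aurkb, its relative found in most dividing cells, had 2653 to 3200 normalized counts in CKO and 3257 to 5818 in WT, without overlap, with a log2 difference of -0.63 and -0.87 without WT replicate 3. Birc5 encodes survivin, which binds the centromere for the complex. It had 4301, 3719 and 7047 normalized counts in CKO, against 1169, 1245 and 3212 in WT. All CKO libraries lay above all WT libraries, with a limma log2 difference of 1.53 (SE 0.44, Benjamini-Hochberg adjusted p = 0.120). Leaving out WT replicate 3 gave a larger difference, with a limma adjusted p of 0.051. The authors' deposited table gives 1.42 (adjusted p = 0.0515). Incenp, the scaffold, had 4142 to 6406 normalized counts in CKO and 2060 to 5353 in WT, with overlap (log2 difference 0.63, 95% interval -0.23 to 1.49, and larger without WT replicate 3). Cdca8 (borealin) was at 0.03 (95% interval -1.02 to 1.07), or 0.60 without that library.

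**Figure D3:**
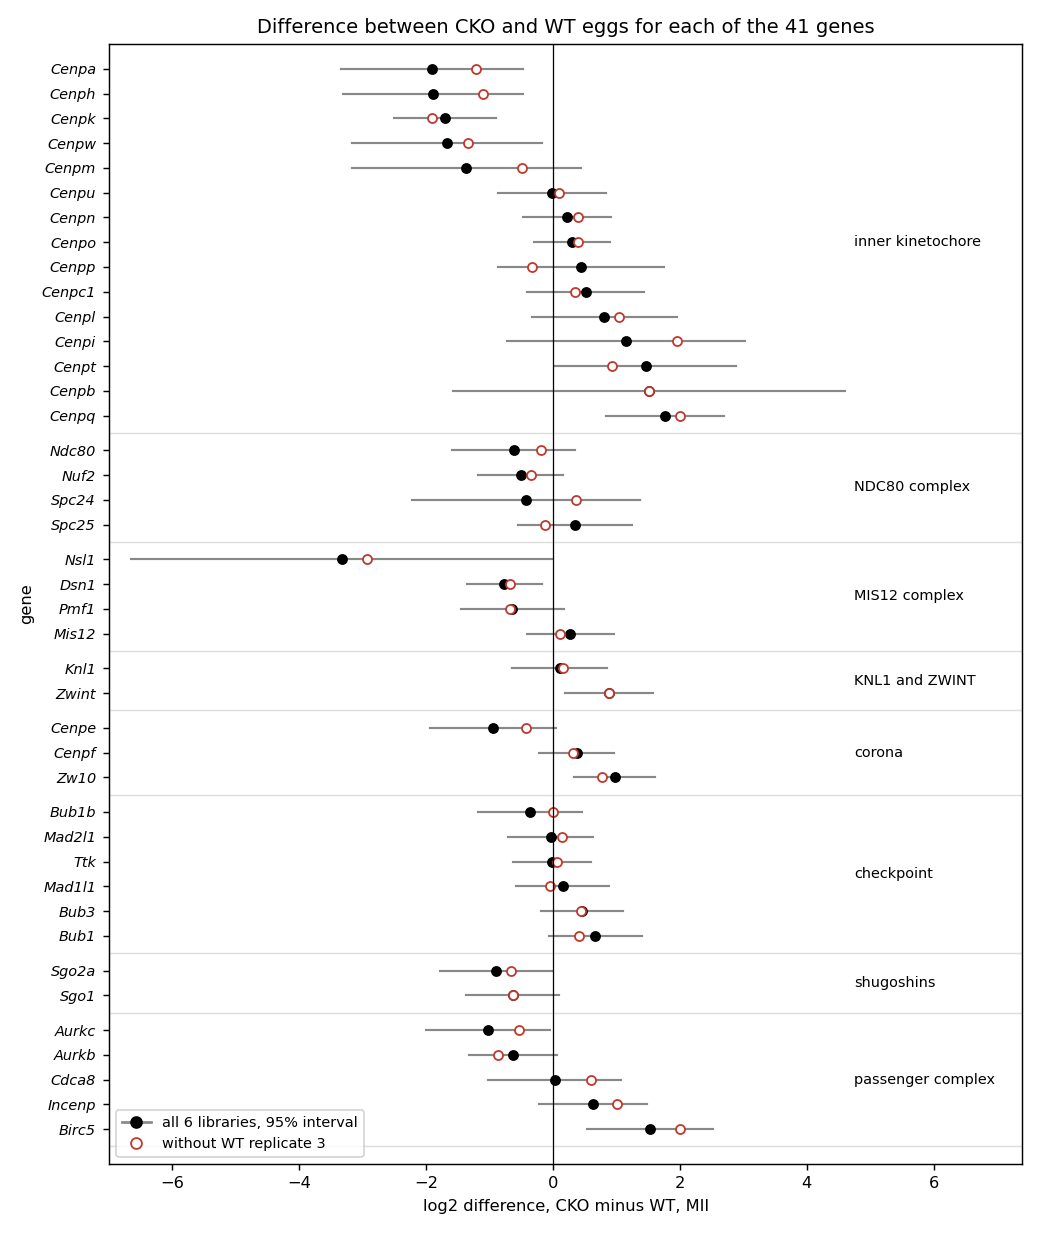
Log2 difference (CKO minus WT) of each of the 41 genes at MII, with the 95% interval of the limma fit over all 6 libraries as a line and the value without WT replicate 3 as an open circle, grouped by sub-complex. Cenpk (-1.70), Dsn1 (-0.76), Cenpq (1.77), Zw10 (0.98) and Zwint (0.88) moved little when that library was left out, whereas Cenpa and Cenph moved towards 0.

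The ends of these transcripts are shown because cytoplasmic polyadenylation elements near the polyadenylation signal are known to control stored mRNAs in maturing oocytes. The last bases of 1 coding transcript per gene (GENCODE vM21) were read for AATAAA or ATTAAA within 50 bases of the end and for TTTTAT or TTTTAAT within 100 bases before that signal, on the transcript strand. The 30-base windows of 4 genes are printed, with the element and the signal in capitals.
Bub1b: cactgtgtaTTTTATAATAAAatagttttt
Aurkb: agaacaacaTTTTATAATAAAgtcttaaat
Aurkc: ctcTTTTATgaagtgatgttaATTAAAact
Cenph: TTTTATaacttaaggaataaaaagAATAAA
In Bub1b and Aurkb the element touches the signal, with 0 bases between them, whereas Aurkc has 12 bases and Cenph 18 bases in between. Only the signal nearest the end was used, and the Cenph window holds an earlier AATAAA, left in lower case, that lies nearer to the element. Of the 41 genes, 32 (78%) had a signal, against 77.4% of 14282 genes, and 9 of these (28.1%) had an element, against 17.9%. The 9 were Cenph, Cenpi, Cenpn, Ndc80, Bub1b, Ttk, Sgo2a, Aurkb and Aurkc. At MII 7 of the 9 lay below 0 (77.8%, median log2 difference -0.62), against 60.3% of all genes with an element (median -0.26). The 7 include Ttk at -0.01, which was at 0.06 without WT replicate 3, and Bub1b at -0.36, which was at -0.002 without it. Of the 23 with a signal and no element, 9 lay below 0 (39.1%, median 0.27), against 51.4% of all such genes (median -0.04). Without WT replicate 3 the medians of the 41 genes moved to -0.18 with and 0.11 without an element, and those of all genes to -0.16 and -0.11. These counts describe the letters of annotated ends, and the ends in use in these oocytes were not measured.

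Levels between genes were compared per kilobase of exon, since read counts rise with transcript length. The length is that of all annotated exons of a gene merged, such as 4211 bases for Cenpw. Ranks between genes therefore also depend on annotated exons that may not be in use in these eggs. Bub1b was the most abundant of the 41 per kilobase in both genotypes, with a mean of 8646 normalized counts per kilobase in CKO and 11645 in WT, at percentile 98.6 in CKO and 99 in WT of the 19876 genes ranked. Next came Cenpn with 6216 per kilobase in CKO and 5257 in WT, and Aurkc with 4009 in CKO and 9033 in WT. Aurkc thus ranked below Cenpn in CKO and above it in WT, and WT replicate 3 held the highest Aurkc value. At the low end of both genotypes were Cenpb, at 0 in 5 of the 6 libraries, and Nsl1 with 3.61 in CKO and 19.1 in WT. Next lowest was Cenpw in CKO, with 39.4 there and 109.9 in WT, and Cenpl in WT, with 67.0 in CKO and 39.2 in WT. Zw10 stood at place 5 of 41 in CKO and 15 in WT, and Dsn1 at place 7 in CKO and 4 in WT. The ratio of Aurkc to Aurkb per kilobase was 1.76 to 3.63 in CKO and 1.86 to 9.54 in WT, with the top of the WT range in replicate 3, and the genotypes overlapped. The ratio of Sgo2a to Sgo1 was 0.521 to 0.991 in CKO and 0.701 to 1.14 in WT, also with overlap.

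**Figure D4:**
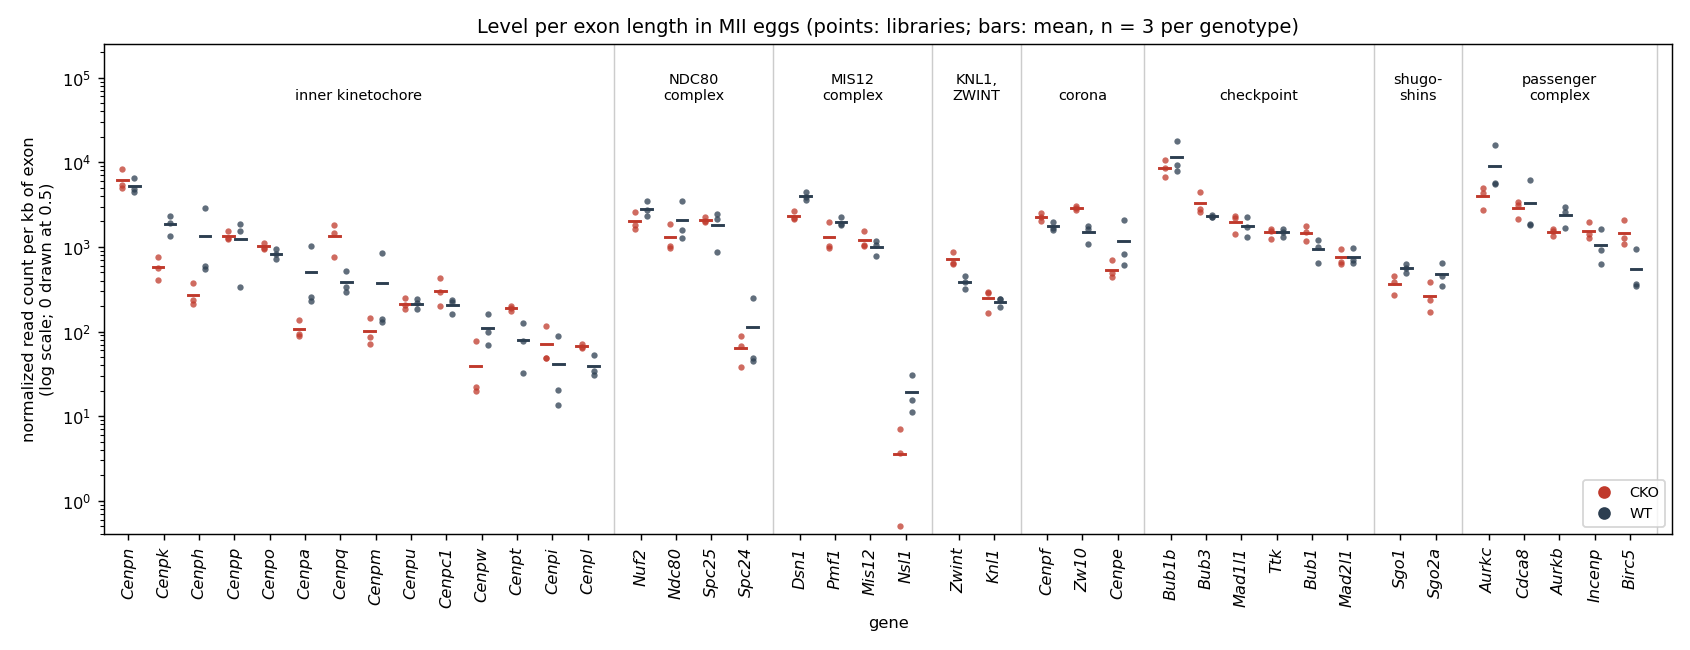
Mean normalized read count per kilobase of exon (log scale) of 40 of the 41 genes in MII eggs, CKO in red to the left of WT in dark blue, with points for the 3 libraries of each genotype, bars for the mean and a value of 0 drawn at 0.5; Cenpb is not drawn. Bub1b is at the top in both genotypes, with 8646 in CKO and 11645 in WT, and Nsl1 at the bottom.

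Other genes of the same pathways were read from lists that do not include the 41. Of 26 further centromere and kinetochore genes 25 were tested at MII, and limma called 0 higher and 1 lower (Benjamini-Hochberg adjusted p under 0.05, 1.51% of all genes). The called gene was Mis18a, a subunit of the complex that licenses the loading of new CENP-A. It had 624, 843 and 1618 normalized counts in CKO, against 3600, 4320 and 5289 in WT, without overlap, and fell by 2.20 on the log2 scale (SE 0.39, limma adjusted p = 0.0302, Benjamini-Hochberg). Without WT replicate 3 its difference was -2.06 (adjusted p = 0.094), no longer past the threshold. Of 14 further checkpoint and error correction genes limma called 0 higher and 1 lower, Ppp1cc, a catalytic subunit of the phosphatase that opposes Aurora kinase at kinetochores. It had 485, 522 and 769 normalized counts in CKO, against 2617, 2118 and 2655 in WT, and fell by 2.08 on the log2 scale (SE 0.34, limma adjusted p = 0.0246, Benjamini-Hochberg). Its adjusted p was 0.0386 without WT replicate 3, and with any other single library left out limma called no gene of the whole table. Over these 6 fits the log2 difference was -2.28 to -1.95 for Ppp1cc and -2.58 to -1.90 for Mis18a. At GV the authors' deposited table lists 2 of these 40 genes, both higher in CKO. This is near the share of all genes tested at GV that were higher, 4.96%. Ska3, of the complex that helps NDC80 follow microtubule ends, had 20377, 20247 and 20027 normalized counts in CKO, against 9931, 10832 and 8902 in WT (log2 fold change 1.03, adjusted p = 1.99e-16 in the authors' deposited table). Nde1, a dynein regulator at the kinetochore, had 7096, 5267 and 6350 normalized counts in CKO, against 1664, 2498 and 1752 in WT (log2 fold change 1.66, adjusted p = 4.52e-13 in the authors' deposited table). At MII both were higher in every CKO library, as were 10.4% of all genes. Their limma log2 differences were 1.83 for Ska3 and 1.52 for Nde1 (Benjamini-Hochberg adjusted p = 0.188 and 0.149).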

How the data were processed

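RNA was measured in 12 libraries, 3 for each genotype and stage, and grouped by the labels. The authors deposited, per gene and library, log10(normalized count + 1), and, per the file headers, also the log2 fold change with its error, a score, p-values before and after adjustment, and a mean signal per gene. Each value was turned back into a normalized count by reversing the logarithm. Its mean equalled the deposited mean signal to a relative difference of 1.4e-14. The sources used here name no aligner, genome build, annotation, counter or strand setting, so overlapping, antisense and near-identical genes are uncertain. All normalized counts were whole multiples of 1 unit per library (100% within 0.05), and the whole reads recovered from them gave the depths at MII and a count-based alternative. At GV the depth is unknown, since the table holds selected genes.

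At MII, limma 3.58.1 (R 4.3.3, trend option on) was run on log2(normalized count + 1) for 3 CKO against 3 WT libraries, over 20388 genes with a mean of at least 1, with Benjamini-Hochberg adjustment and a threshold of 0.05. On this scale the change of low genes is understated, or overstated where some libraries lie at 0. All 41 genes passed the filter, Cenpb only through CKO replicate 4. The fit was also run on simulated data in which all libraries had the same spread. That run cannot show how the fit performs with an outlying library such as WT replicate 3. At GV no fit across genes was made, and fold changes are the authors' deposited values. The tables were normalized separately and tested only within a stage, and no added reference RNA was used here. The 95% intervals of log2 differences come from the limma fit and cover the spread between libraries, while limits on counts of 0 (3 reads) cover counting error only. Promoters are from RefSeq (GRCm38.p6), and exon lengths and transcript ends from GENCODE vM21.

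The genes and lists were chosen with earlier results of these data known. Genes given per library were those listed at GV, those at an unadjusted limma p under 0.05 or called in the authors' deposited table at MII, and, in each sub-complex, the most abundant and the one with the largest difference. The alternatives were another pseudocount (0.1), no filter, library size alone, a 2-fold minimum, each library left out, array quality weights, a replicate block, limma-voom on the recovered reads, the authors' deposited values and, added after seeing the data, reads thinned to equal size factors.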

Additional observations from a re-analysis of the deposited data

How the results depend on the processing

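With all 6 MII libraries limma called 106 genes higher and 202 lower, and 0 of the 41 in either direction. Leaving out 1 library gave 0 to 266 higher and 0 to 624 lower over all genes, and 0 to 1 higher among the 41; the calls came only without WT replicate 3, and every other omission gave 0. Array quality weights gave 1297 higher and 1893 lower over all genes, and 4 higher and 4 lower among the 41. The authors' deposited table gave 658 higher and 1034 lower at over 2-fold, and 1 higher and 3 lower among the 41. Thinning the reads gave 69 higher and 138 lower over all genes, with 0 of the 41. On recovered reads limma-voom gave 91 higher and 80 lower, also with 0 of the 41. Deviations from the genotype mean correlated at 0.0133 and -0.1008 in same-numbered MII libraries, and at -0.0994 to 0.1258 in other pairs. With 3 libraries per genotype this check cannot decide whether the numbers pair samples, and the main fit used no pairing. With the replicate block 0 genes were called higher and 0 lower. Lsm14b stayed lower throughout, at -3.67 to -3.54 with 1 library left out and -3.63 with the replicate block, at a limma adjusted p above 0.05 in all of these fits except the 1 without WT replicate 3. Of 574 alternative values for the 41 genes, 16 passed the threshold in the same direction and 29, in 10 genes whose main value was at most 0.44 in size, changed sign; Cenpb was at 0 without CKO replicate 4 and with the replicate block. The sign changes were in Cenpn (-0.0191 to 0.39 with 1 library left out, -0.13 with the replicate block), Cenpp (-0.34 to 0.89, -0.17 with array weights), Cenpu (-0.14 to 0.0933, 0.0187 with library size alone, 0.0841 thinned), Spc24 (-0.87 to 0.37, 0.34 with array weights), Spc25 (-0.12 to 0.63, -0.0216 with array weights), Knl1 (-0.0334 to 0.38), Mad1l1 (-0.0526 to 0.38), Mad2l1 (-0.22 to 0.14, 0.0534 with array weights), Ttk (-0.10 to 0.10, 0.0188 with library size alone) and Cdca8 (-0.27 to 0.60, -0.41 with the replicate block, -0.20 in the authors' deposited table). The causes were not tested. Read numbers limit Nsl1 in CKO replicate 3 and Cenpb, where counts of 0 allow up to 7.60 normalized counts.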

Other observations

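At MII the 3 transcripts of the SKA complex, which couples the outer kinetochore to microtubule ends, were higher in every CKO library, as were 10.4% of all genes; they were singled out after their values were seen. Ska1 had 683, 977 and 1229 normalized counts in CKO, against 368, 395 and 355 in WT (log2 difference 1.33). Ska2 had 2700, 4433 and 3625 in CKO, against 2468, 1678 and 499 in WT (1.46, or 0.79 without WT replicate 3). Ska3 had 6102, 9446 and 6957 in CKO, against 4398, 3227 and 623 in WT (1.83, or 0.97 without WT replicate 3). None passed the limma test with all 6 libraries at equal weight (Benjamini-Hochberg adjusted p = 0.135, 0.223 and 0.188), and all 3 passed with array quality weights (adjusted p = 0.0193, 0.0429 and 0.0269), where 15.6% of all genes were called. The authors' deposited table called Ska1 higher (log2 fold change 1.37, adjusted p = 0.00293), where 4.1% of all genes were called higher. It did not call Ska2 or Ska3 (adjusted p = 0.173 and 0.134 in that table).

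Among the other genes of the loading and error correction steps, the authors' deposited table called Kif2c, a kinesin that depolymerises microtubules, and Trip13 and Ppp1ca higher, and Cenps lower. The 4 were named because of these calls on the same libraries, which took in 10.5% of all genes. Their limma log2 differences were 1.18, 1.73, 1.58 and -1.36, each without overlap between the genotypes, as in 22.4% of all genes. None was past the threshold with all 6 libraries at equal weight. All 4 passed with array quality weights (limma adjusted p = 0.00304, 0.0269, 0.00747 and 0.00331), where 15.6% of all genes were called. Ppp1ca passed without WT replicate 3 (limma adjusted p = 0.0386), where 4.37% were called. Hjurp, the chaperone of CENP-A, was at -0.27.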
